A study of Mus musculus with 18 samples.

Results

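Bile acid transporters are the membrane carriers that move bile acids between blood, hepatocytes, bile and ileal enterocytes. The 10 genes described here were taken by gene symbol, 10 of the 24346 symbols in the expression tables, and each was found once. They are the hepatic uptake carriers Slc10a1, Slco1b2, Slco1a1 and Slco1a4, the canalicular exporters Abcb11 and Abcc2, the basolateral exporters Abcc3, Slc51a and Slc51b, and the ileal uptake carrier Slc10a2. The comparison they address is whether hepatic uptake, hepatic export and ileal transport of bile acids differed at the RNA level between septic mice that inhaled hydrogen and septic mice that did not.

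Messenger RNA was sequenced from liver, intestine and lung tissue of male C57BL/6 mice, 9 weeks of age, all of which had undergone cecal ligation and puncture (CLP), in which leaking bowel contents cause sepsis. H2 libraries came from mice kept in 7% hydrogen gas from surgery until tissue was taken at 24 h, and these animals shared a cage inside a gas box, so gas and housing cannot be told apart. Control libraries came from mice with the same surgery and no gas. There were 3 libraries in each of 6 groups, 18 in all, and sham-operated mice were not analysed here. The labels do not say that each library is a separate animal, which organs came from the same mouse, or which segment of the intestine was taken, so p values measure the spread between these libraries. Expression was deposited as FPKM (fragments per kilobase, scaled to the depth of the library), a unit in which levels of different genes can be compared per length.

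Each organ carried its own markers. Albumin (Alb) was at 11668 to 15862 FPKM in the H2 livers and 9335 to 21978 FPKM in the control livers, and the surfactant gene Sftpc was at 20779 FPKM or more in every lung library and at most 1.17 FPKM elsewhere. The ileal lipid-binding protein Fabp6 was at 1721 to 3060 FPKM in the H2 intestines and 1112 to 1653 FPKM in the control intestines. The depth implied by genes with 1 fragment ran from 8.79 to 15.8 M fragments per library. The values of H2 intestine 2 summed to 1142970 FPKM, against 709826 to 850609 in the other 17 libraries.

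Bile acids circulate between liver and intestine. Hepatocytes take conjugated bile acids from portal blood through the sodium-dependent carrier encoded by Slc10a1 (NTCP) and through organic anion transporting polypeptides, and pump them into the bile canaliculus through the export pump encoded by Abcb11 (BSEP). In the terminal ileum the sodium-dependent carrier encoded by Slc10a2 (ASBT) takes bile acids up, and the heterodimer of Slc51a and Slc51b (OSTα and OSTβ) passes them to portal blood. Abcc3 and the same heterodimer can return bile acids and conjugates from hepatocytes to blood when canalicular export fails, and the bile acid receptor FXR (Nr1h4) is known to induce Abcb11, Slc51a and Slc51b. Endotoxin and inflammatory cytokines are known to lower Slc10a1, Abcb11 and Abcc2 RNA in rodent liver.

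RefSeq lists promoters of 9 of the 10 genes, 10 windows of 250 bases before to 50 after a start site, on GRCm38.p6, the assembly also called mm10. They were searched on both strands for 3 motifs: AGGTCA, the single nuclear receptor hexamer; AGGTCANTGACCT, the inverted repeat spaced by 1 base to which FXR binds, with up to 2 mismatches; and GTTAATNATTAAC, the palindrome of the liver factor HNF1, with up to 2 mismatches. Of 32851 promoters of the same length, 16.3% held the hexamer, 1.14% the inverted repeat and 1.36% the palindrome. The windows of Slc10a1, Slco1b2, Abcb11, Abcc2 and Slc10a2, which varied together over the livers, and of Slc51b, which ran the other way, are printed 5′ to 3′ on the gene's strand, with matches in capitals and positions counted from the start site to the first base of the match.
Abcb11, chr2:69342567-69342866, minus strand: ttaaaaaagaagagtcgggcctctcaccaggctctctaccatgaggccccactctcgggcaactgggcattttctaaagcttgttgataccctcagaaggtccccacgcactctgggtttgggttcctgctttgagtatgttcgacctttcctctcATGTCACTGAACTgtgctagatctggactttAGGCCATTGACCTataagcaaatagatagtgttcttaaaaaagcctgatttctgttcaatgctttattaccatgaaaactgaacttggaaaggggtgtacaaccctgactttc
Slco1b2, chr6:141629268-141629567, plus strand: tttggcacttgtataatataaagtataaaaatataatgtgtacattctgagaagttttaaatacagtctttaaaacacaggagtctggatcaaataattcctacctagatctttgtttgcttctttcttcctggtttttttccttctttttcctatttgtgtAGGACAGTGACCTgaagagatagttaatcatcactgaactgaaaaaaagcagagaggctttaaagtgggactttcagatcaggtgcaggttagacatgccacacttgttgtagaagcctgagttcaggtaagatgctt
Slc10a1, chr12:80968656-80968955, minus strand: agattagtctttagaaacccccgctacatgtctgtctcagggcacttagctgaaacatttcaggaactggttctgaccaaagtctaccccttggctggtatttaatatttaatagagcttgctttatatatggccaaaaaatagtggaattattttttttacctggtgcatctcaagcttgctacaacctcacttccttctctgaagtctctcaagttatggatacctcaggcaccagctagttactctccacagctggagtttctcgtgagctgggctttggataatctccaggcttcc
Abcc2, chr19:43782058-43782357, plus strand: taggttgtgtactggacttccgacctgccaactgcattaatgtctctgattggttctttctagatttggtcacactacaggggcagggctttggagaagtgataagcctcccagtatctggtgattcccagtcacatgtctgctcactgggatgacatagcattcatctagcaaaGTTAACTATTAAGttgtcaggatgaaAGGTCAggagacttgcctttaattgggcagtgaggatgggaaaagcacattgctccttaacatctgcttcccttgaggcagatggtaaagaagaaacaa
Slc10a2, chr8:5105238-5105537, minus strand: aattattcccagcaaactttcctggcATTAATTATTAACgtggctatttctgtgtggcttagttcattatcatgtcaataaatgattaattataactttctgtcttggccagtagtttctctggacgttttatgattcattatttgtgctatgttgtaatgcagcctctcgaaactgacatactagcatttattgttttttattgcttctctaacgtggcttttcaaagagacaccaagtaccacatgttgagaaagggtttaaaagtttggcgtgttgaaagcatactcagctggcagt
Slc51b, chr9:65422724-65423023, minus strand: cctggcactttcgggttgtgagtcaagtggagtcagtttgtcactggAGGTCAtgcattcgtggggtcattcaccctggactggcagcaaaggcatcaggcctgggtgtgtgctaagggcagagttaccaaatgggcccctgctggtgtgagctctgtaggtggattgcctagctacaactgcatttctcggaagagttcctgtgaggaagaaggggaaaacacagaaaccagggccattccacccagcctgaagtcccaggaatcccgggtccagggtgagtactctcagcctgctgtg

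The Abcb11 window held the inverted repeat at -63 with 1 mismatch and at -94 with 2 mismatches, and the Slco1b2 window held it at -88 with 1 mismatch. In both, the only exact hexamer lay inside the inverted repeat. The HNF1 palindrome was found in Slc10a2 at -224 with 1 mismatch and in Abcc2 at -75 with 2 mismatches, and Abcc2 also had the hexamer at -49. Slc51b had the hexamer alone, at -203. The printed Slc10a1 window held none of the 3 motifs, while a second RefSeq start of that gene (chr12:80968030-80968329) had the hexamer at -87. The printed windows were chosen by the liver values of their genes. Among the searched windows not printed, Slco1a1 had the hexamer at -134 and -24 and Slc51a had it at -58. The Slco1a4 window held none of the 3 motifs. A match is a run of letters in these windows and says nothing of binding in these mice.

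In the liver, 5 of the 8 tested transporters stood higher in all 3 H2 libraries than in any control library, where 12.2% of the 10041 tested genes did: the uptake carriers Slc10a1 and Slco1b2, the canalicular pumps Abcb11 and Abcc2, and Slc10a2. Their ratios of mean FPKM, H2 over control, ran from 2.18 to 3.58. Slc51b stood lower in all 3 H2 libraries, as did 13.1% of tested genes, while Slco1a1 and Abcc3 overlapped between the groups. None of these differences passed an adjusted p of 0.05 with all 6 libraries (limma, Benjamini-Hochberg), where 0.0199% of tested genes did, and 1 control library lay between the H2 libraries and the other controls in each of the 5. In bulk tissue, fewer cells of a type and less RNA per cell cannot be told apart.

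Slc10a1 (chr12:80953183-80968705, minus strand), the main sodium-dependent bile acid uptake carrier of hepatocytes, was at 93.9, 81.6 and 91.0 FPKM in the H2 livers, against 22.3, 48.1 and 16.1 FPKM in the control livers. The H2 libraries lay close together, and the highest control, control liver 2, was nearer to them than to control liver 3 on the log scale. The difference, H2 minus control, was 1.73 ± 0.36 on the log2(FPKM + 1) scale (SE, n = 3 each, adjusted p = 0.154, limma). Slco1b2 (chr6:141629518-141686646, plus strand) encodes the hepatocyte organic anion transporter OATP1B2, which takes up bile acids without sodium. It was at 185, 175 and 200 FPKM in the H2 livers, against 30.2, 108 and 18.8 FPKM in the control livers, with a log2 difference of 2.21 ± 0.57 (SE, n = 3 each, adjusted p = 0.167, limma). It was the most abundant of the 10 genes in all 6 liver libraries. Its level per Slc10a1 was 1.98, 2.15 and 2.204 in the H2 livers, against 1.35, 2.24 and 1.17 in the control livers, so control liver 2 lay with the H2 libraries in this ratio.

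Slco1a1 (chr6:141907282-141946962, minus strand) and Slco1a4 (chr6:141805440-141856199, minus strand) are organic anion transporters of the same chromosome 6 cluster as Slco1b2. Their sequences are alike, and how shared reads were assigned is not given in the sources used here. Slco1a1 was at 5.03, 7.95 and 4.94 FPKM in the H2 livers, against 13.9, 3.64 and 5.97 FPKM in the control livers. The groups overlapped and the log2 difference was -0.20 ± 0.41 (SE, n = 3 each, adjusted p = 0.804, limma), with the sign set by control liver 1, without which it was 0.27. Control liver 2, the highest control for the other uptake carriers, was the lowest of the 6 libraries for this gene. Slco1a4 fell under the filter of a mean of 1 FPKM and was not tested. It was at 0.748, 0.586 and 0.745 FPKM in the H2 livers, against 0.124, 0.315 and 0.045 FPKM in the control livers, again without overlap and with control liver 2 the highest control.

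Abcb11 (chr2:69238282-69342616, minus strand), the canalicular bile salt export pump, was at 29.5, 20.03 and 29.3 FPKM in the H2 livers, against 3.28, 16.6 and 2.63 FPKM in the control livers. H2 liver 2 and control liver 2 were close to each other, and the other control livers were the lowest by far. The log2 difference was 2.05 ± 0.57 (SE, n = 3 each, adjusted p = 0.168, limma). Abcc2 (chr19:43782192-43840740, plus strand), the canalicular pump MRP2 for conjugated bilirubin, glutathione conjugates and sulfated bile acids, was at 34.9, 39.2 and 37.7 FPKM in the H2 livers, against 13.9, 27.9 and 9.50 FPKM in the control livers. Its log2 difference was 1.21 ± 0.34 (SE, n = 3 each, adjusted p = 0.168, limma). Control liver 2 was again the control nearest to the H2 libraries. Abcb11 per Slc10a1, canalicular pump over sinusoidal uptake, was 0.314, 0.245 and 0.322 in the H2 livers, against 0.147, 0.346 and 0.163 in the control livers, so the groups overlapped in this ratio through control liver 2 alone.

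**Figure D1:**
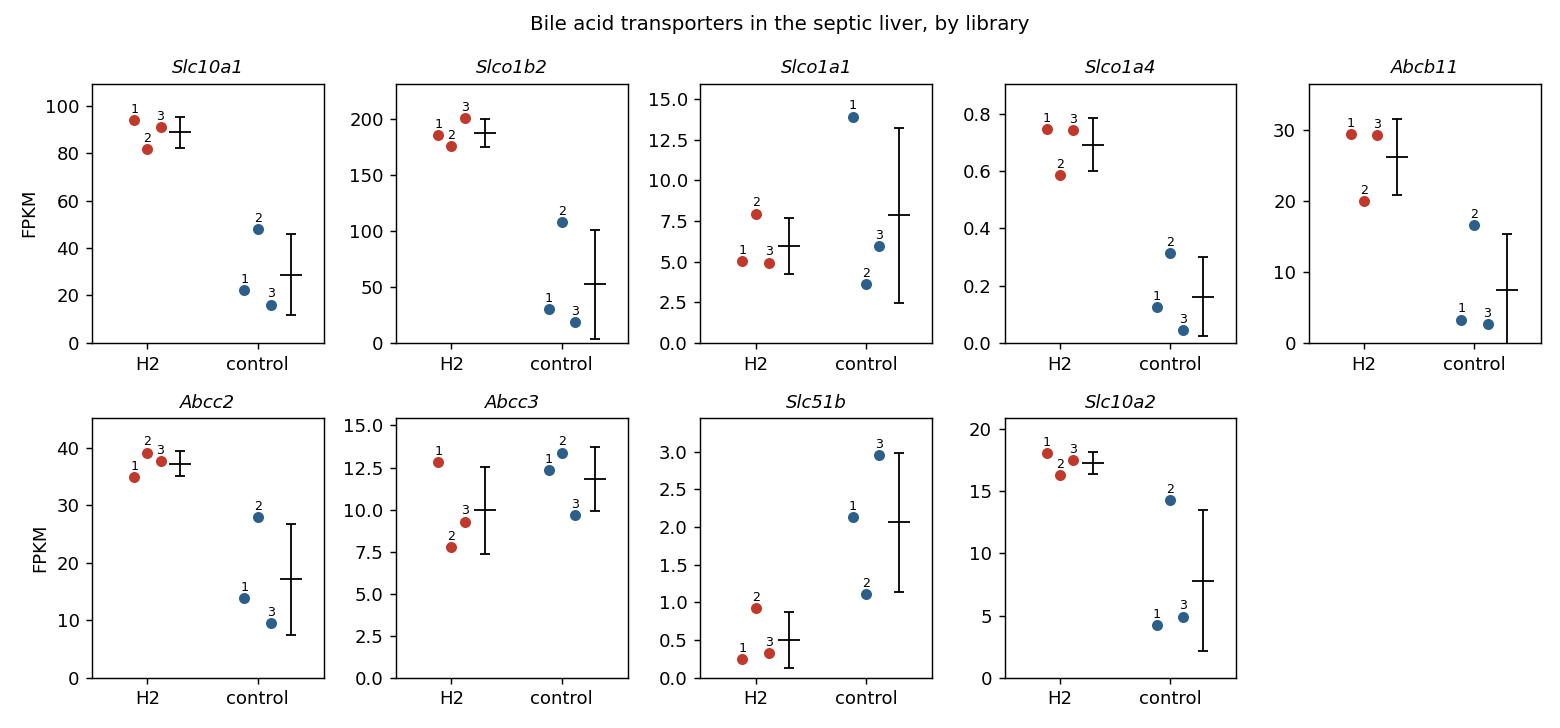
FPKM (vertical axis, linear, from 0) of 9 transporters in each liver library, H2 in red on the left and control in blue on the right; numbers are the replicate numbers and the black bars are the group mean ± SD (n = 3 each), with the lower arm of Abcb11 in the controls ending at the axis. Control liver 2 lies between the H2 libraries and the other controls for Slc10a1, Slco1b2, Slco1a4, Abcb11, Abcc2 and Slc10a2, and Slc51b runs the other way.

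The basolateral exporters did not share this pattern. Abcc3 (chr11:94343295-94392997, minus strand), the sinusoidal pump MRP3, was at 12.8, 7.77 and 9.28 FPKM in the H2 livers, against 12.3, 13.4 and 9.69 FPKM in the control livers. These ranges overlapped and the log2 difference was -0.24 ± 0.20 (SE, n = 3 each, adjusted p = 0.496, limma). Basolateral over canalicular RNA (Abcc3 per Abcb11) was 0.435, 0.388 and 0.317 in the H2 livers, against 3.76, 0.804 and 3.69 in the control livers. Abcb11 exceeded Abcc3 in all H2 livers and in control liver 2, and was below it in control livers 1 and 3.

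Slc51b (chr9:65412714-65422955, minus strand), the β subunit of the heterodimeric bile acid exporter, was low in every liver. It was at 0.248, 0.927 and 0.327 FPKM in the H2 livers, against 2.13, 1.11 and 2.95 FPKM in the control livers, which with its 709-base transcript is about 2.28, 6.98 and 2.32 fragments in the H2 livers and 18.2, 9.27 and 23.4 fragments in the control livers. The groups did not overlap, but control liver 2 was nearest to the H2 libraries here too. The log2 difference was -1.01 ± 0.27 (SE, n = 3 each, adjusted p = 0.168, limma), a scale that understates changes of genes this low. Its partner Slc51a (chr16:32474504-32487879, minus strand), the α subunit, was listed at 0 in 5 livers and at 0.052 FPKM in H2 liver 1, and was not tested.

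Slc10a2 (chr8:5083219-5105351, minus strand) encodes the apical sodium-dependent bile acid carrier, known in the liver from bile duct cells, which recover bile acids from bile. It was at 18.045, 16.3 and 17.5 FPKM in the H2 livers, against 4.197, 14.3 and 4.91 FPKM in the control livers. All H2 libraries were above all controls, control liver 2 by the smallest gap. The log2 difference was 1.23 ± 0.39 (SE, n = 3 each, adjusted p = 0.175, limma). The sum of 8 bile duct markers overlapped between the groups, at 47.8 to 70.1 FPKM in the H2 livers and 50.005 to 79.2 FPKM in the control livers. Most of that sum was Spp1, at 32.9 to 52.3 FPKM in the H2 livers and 35.0 to 58.8 FPKM in the control livers. Only 4 of the 8 passed the filter, Cftr was at most 0.057 FPKM and Krt7 at most 1.24 FPKM. The sum therefore says little of bile duct cells, whose part in the Slc10a2 values was not tested. The ileum markers, the tissue where Slc10a2 is most abundant, summed to at most 0.16 FPKM in any liver.

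Of the 10 transporters 8 passed the filter of a mean of 1 FPKM in the liver, and before adjustment 6 of the 8 had p under 0.05, against 21% of tested genes. The median log2 difference of the 8 was 1.22, and that of all tested genes was -0.02. A fit of all 18 libraries shares the spread between organs and also changes the filter and the genes tested. There Slc10a1 (adjusted p = 0.00343, limma), Slco1b2 (adjusted p = 0.0102) and Abcb11 (adjusted p = 0.0158) were called, among 2.09% of 13362 genes. Each of them was at most 0.285 FPKM in any intestine or lung library. The shared spread thus comes largely from libraries with almost none of their RNA, and these calls add no support to the liver fit.

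The calls turned on control liver 2. Without it, 6 of the 8 were called, where 28.2% of 10057 genes were, 14.7% higher and 13.5% lower: Slco1b2 (log2 difference 2.92), Abcb11 (2.77), Slc10a1 (2.17), Slc10a2 (1.72) and Abcc2 (1.61) higher and Slc51b (-1.26) lower, with adjusted p of 0.000713 to 0.00918 (limma). Control liver 2 is the control nearest to the H2 libraries in all 6, so leaving it out widens each difference by construction. Leaving out any other liver library called none of the 8, with Slc51b under the filter without control liver 3. No label sets control liver 2 apart. Its hepatocyte marker sum, 18139 FPKM, was the lowest of the 6 livers. The sum was 22224 to 26173 FPKM in the H2 livers and 23161 and 32530 FPKM in the other control livers. By the median log2(FPKM + 1) of the same markers it was not the lowest, at 9.42 against 9.36 in control liver 3.

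**Figure D2:**
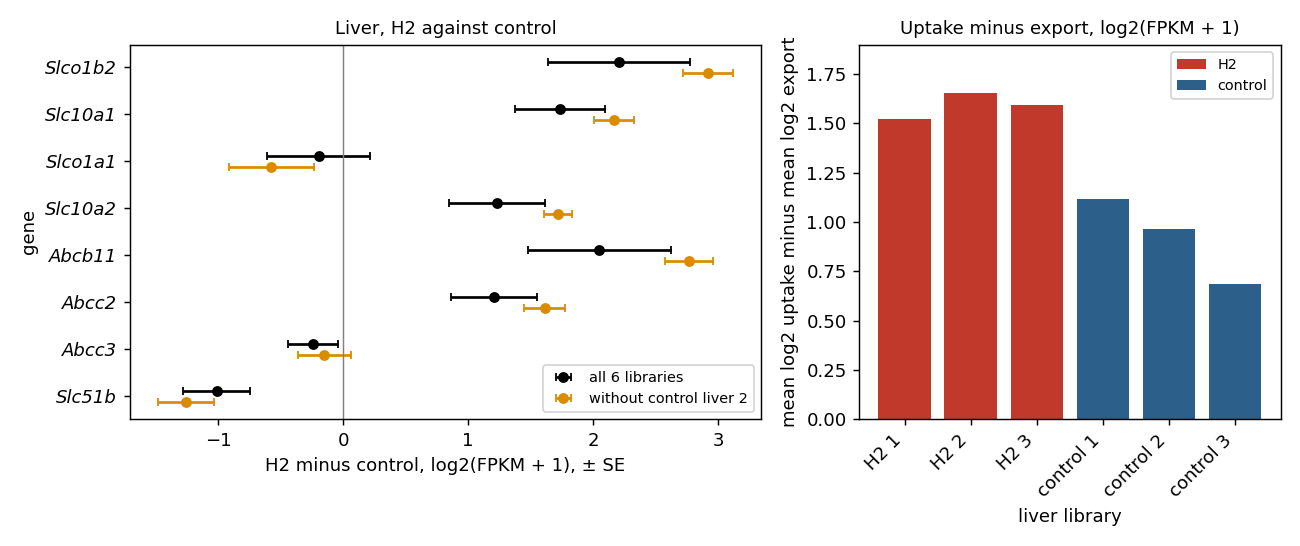
Left, log2 difference of FPKM + 1 (H2 minus control, points ± SE) for the 8 tested transporters in the liver with all 6 libraries (black) and without control liver 2 (orange); right, mean log2(FPKM + 1) of the 4 uptake genes minus that of the 5 export genes in each liver library, H2 in red and control in blue. Slco1b2, Slc10a1, Slc10a2, Abcb11 and Abcc2 lie right of 0 and Slc51b left of it in both fits, and the 3 H2 bars are the tallest.

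As a summary of uptake against export, the mean log2(FPKM + 1) of the 4 uptake genes was set against that of the 5 export genes in each liver. The difference was 1.52, 1.65 and 1.59 in the H2 livers, against 1.12, 0.96 and 0.69 in the control livers. All H2 livers were above all control livers, with a mean of 1.59 ± 0.07 in H2 and 0.92 ± 0.22 in control (SD, n = 3 each). The gap between the groups was 0.67, and 0.55 to 0.76 with each library left out. The genes were chosen with their values known and the measure carries no test. Its export side mixes canalicular pumps that were higher and a basolateral subunit that was lower in the H2 libraries. The uptake genes averaged 4.38, 4.41 and 4.39 in the H2 livers, against 3.39, 3.75 and 2.82 in the control livers. The canalicular pumps averaged 5.05, 4.86 and 5.10 in the H2 livers, against 3.00, 4.50 and 2.63 in the control livers. By these means the pumps exceeded the uptake genes in all H2 livers and control liver 2, and were below them in the other controls. This order depends on the measure, since the uptake mean gives Slco1a4, under 1 FPKM in every liver, the same weight as Slco1b2. Summed FPKM of the uptake genes was 285, 266 and 297 in the H2 livers, against 66.6, 160 and 40.9 in the control livers. That of the canalicular pumps was 64.3, 59.2 and 67.0 in the H2 livers, against 17.2, 44.6 and 12.1 in the control livers. By sums, uptake exceeded these pumps in every liver, by a larger factor in the H2 livers. For uptake minus export as a whole, control liver 2 was between the other controls, not nearest to the H2 livers.

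Across the 6 livers Slc10a1 was most like Adh4, an alcohol dehydrogenase, with a root mean square difference of centred log2 values of 0.12 over 6 libraries, where the median over all tested genes was 1.002. Keg1, Klb, Nit2 and Adck3 followed at 0.12 to 0.16. Among 10033 genes ranked by this measure, Abcc2 stood at 38, Slc10a2 at 64, Abcb11 at 87 and Slco1b2 at 110, while Abcc3 was at 6199, Slco1a1 at 9254 and Slc51b at 9771. The most like Slc51b were 1500011B03Rik, Caap1, Sdsl, Epb4.1 and Fbp1, at 0.09 to 0.13. These are descriptions over 6 libraries that share 2 groups.

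Of 4 lists of other bile acid genes, 3 had a median above that of all genes in the liver, and 0 of their genes were called. Of 19 other bile acid, phospholipid and organic anion transporters 11 were tested, with a median log2 difference of 0.40. The canalicular phospholipid floppase Abcb4 averaged 22.8 ± 3.08 FPKM in the H2 livers and 12.04 ± 5.14 FPKM in the control livers (SD, n = 3 each), a log2 difference of 0.94 ± 0.28 (SE, adjusted p = 0.171, limma). The canalicular efflux pump Abcg2 (0.40 ± 0.11, adjusted p = 0.168), the phospholipid flippase Atp8b1 (0.41 ± 0.12, adjusted p = 0.172), Abcc6 (0.98 ± 0.35, adjusted p = 0.196) and the prostaglandin carrier Slco2a1 (0.48 ± 0.20, adjusted p = 0.230) also had higher H2 than control libraries. Slco3a1 was the exception, with all H2 libraries below all controls (-0.58 ± 0.19, adjusted p = 0.182). Over all tested genes, 12.2% were higher and 13.1% lower without overlap.

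Of 15 genes of bile acid synthesis and conjugation 13 were tested, with a median log2 difference of 0.33 and 6 without overlap, all higher in H2, where 12.2% of tested genes were higher and 13.1% lower without overlap. Akr1d1, the steroid 5β-reductase of bile acid synthesis, averaged 7.25 ± 2.41 FPKM in the H2 livers and 1.86 ± 0.54 FPKM in the control livers (SD, n = 3 each), a log2 difference of 1.503 ± 0.25 (SE, adjusted p = 0.130, limma). The sterol 12α-hydroxylase Cyp8b1 (1.01 ± 0.20) and the steroid dehydrogenase Hsd3b7 (0.79 ± 0.20) followed, then Cyp39a1 (0.82 ± 0.25), Amacr (0.38 ± 0.15) and Scp2 (0.33 ± 0.12). Their adjusted p ran from 0.130 to 0.225.

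Of 18 nuclear receptors and regulators 15 were tested, with a median log2 difference of 0.32. The xenobiotic receptor Nr1i3 (CAR) averaged 25.7 ± 3.24 FPKM in the H2 livers and 6.06 ± 5.52 FPKM in the control livers (SD, n = 3 each), a log2 difference of 2.23 ± 0.54 (SE, adjusted p = 0.167, limma). Klb, the coreceptor of the ileal hormone FGF15, was at 1.61 ± 0.28 (adjusted p = 0.130), the pregnane X receptor Nr1i2 at 0.69 ± 0.24 (adjusted p = 0.193) and Ppara, whose groups overlapped, at 0.71 ± 0.28 (adjusted p = 0.220). Nr1h4, which encodes FXR, averaged 52.4 ± 5.58 FPKM in the H2 livers and 38.1 ± 9.98 FPKM in the control livers (SD, n = 3 each), without overlap but with a log2 difference of only 0.48 ± 0.21 (SE, adjusted p = 0.248, limma), and Fgfr4 overlapped. Cebpb, a factor of the acute phase response named here after its values were seen, ran the other way: it averaged 36.9 ± 4.44 FPKM in the H2 livers and 46.3 ± 7.45 FPKM in the control livers (SD, n = 3 each), without overlap (-0.31 ± 0.16, SE, adjusted p = 0.292, limma). Of 12 detoxification enzymes 9 were tested, with a median of -0.11. The glutathione synthesis subunit Gclm was the 1 without overlap (0.75 ± 0.21, adjusted p = 0.168), while Gsta2, Gstm1, Sult2a8, Ugt1a1 and Gclc overlapped.

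Markers of other liver cells also differed beside these genes. The 6 Kupffer cell markers summed to 196 to 266 FPKM in the H2 livers and 158 to 192 FPKM in the control livers, and 5 of the 6 had p under 0.05 before adjustment, all higher in H2, against 21% of tested genes in either direction. The sixth, Marco, ran the other way with overlap, at 96.7 ± 30.2 FPKM in the H2 livers and 125 ± 30.0 FPKM in the control livers (SD, n = 3 each). The 6 endothelial markers summed to 22.6 to 29.9 FPKM in the H2 livers and 18.3 to 23.1 FPKM in the control livers. Their median log2 difference was 0.75, and 4 of the 6 were higher without overlap, against 12.2% of tested genes. Cdh5 ran the other way with overlap, at 5.50 ± 1.32 FPKM in the H2 livers and 9.30 ± 4.64 FPKM in the control livers (SD, n = 3 each). The 5 fat cell markers summed to 39.8 to 55.5 FPKM in the H2 livers and 71.8 to 161 FPKM in the control livers, without overlap. Fabp4 and Cidec, the 2 of them tested, were lower with p under 0.05 before adjustment, while the defining marker Adipoq was at 0 in all H2 livers and at most 0.073 FPKM in the control livers. The summed 10 hepatocyte markers overlapped, at 22224 to 26173 FPKM in the H2 livers and 18139 to 32530 FPKM in the control livers. None was at 0. Of these 10, 4 had p under 0.05 before adjustment (limma), all higher in H2, and 8 had an estimate above 0. Cyp2e1 and G6pc were the 2 higher without overlap, and 0 were lower without overlap. The part of these cells in the transporter differences was not tested.

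In the intestine, the ileal carriers were among the abundant transcripts and their H2 and control libraries overlapped throughout. Slc51b was at 1162, 1961 and 786 FPKM in the H2 intestines, against 1657, 849 and 1465 FPKM in the control intestines. It made up 59.9% to 75.5% of the summed FPKM of the 10 genes in the H2 intestines and 64.3% to 73.3% in the control intestines. Slc51a was at 440, 350.02 and 250 FPKM in the H2 intestines, against 391.9, 273 and 310 FPKM in the control intestines. The β subunit thus exceeded the α subunit in every intestinal library, by 2.64, 5.602 and 3.15 in the H2 intestines and 4.23, 3.11 and 4.73 in the control intestines.

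Slc10a2, the apical carrier, was at 323, 271 and 110 FPKM in the H2 intestines, against 268, 190 and 208 FPKM in the control intestines. H2 intestine 3 was the lowest of the 6 and H2 intestine 1 the highest, so the H2 group spanned the controls. Slc10a2 per Slc51a, apical uptake over basolateral exit, was 0.733, 0.774 and 0.439 in the H2 intestines, against 0.684, 0.697 and 0.673 in the control intestines. It lay within a narrow range in 5 libraries, and H2 intestine 3 stood below them. The log2 differences were -0.05 ± 0.40 for Slc10a2, 0.07 ± 0.26 for Slc51a and -0.07 ± 0.39 for Slc51b (SE, n = 3 each), with adjusted p of 0.920 to 0.965 (limma).

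Abcc2, apical in enterocytes as in hepatocytes, was at 4.42, 10.6 and 7.93 FPKM in the H2 intestines, against 4.92, 1.74 and 5.14 FPKM in the control intestines. H2 intestines 2 and 3 were above every control and H2 intestine 1 was below the highest controls, with a log2 difference of 0.83 ± 0.38 (SE, n = 3 each, adjusted p = 0.415, limma). Abcc3, basolateral in enterocytes, was at 11.1, 3.70 and 7.21 FPKM in the H2 intestines, against 19.1, 7.13 and 9.24 FPKM in the control intestines. Its log2 difference was -0.61 ± 0.42 (SE, n = 3 each, adjusted p = 0.541, limma). Abcc2 per Abcc3 was 0.397, 2.85 and 1.0998 in the H2 intestines, against 0.258, 0.244 and 0.557 in the control intestines, and only H2 intestines 2 and 3 were above all controls. The hepatocyte carriers Slc10a1, Slco1b2, Slco1a1, Slco1a4 and Abcb11 were at most 0.285 FPKM in any intestinal library and were not tested.

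**Figure D3:**
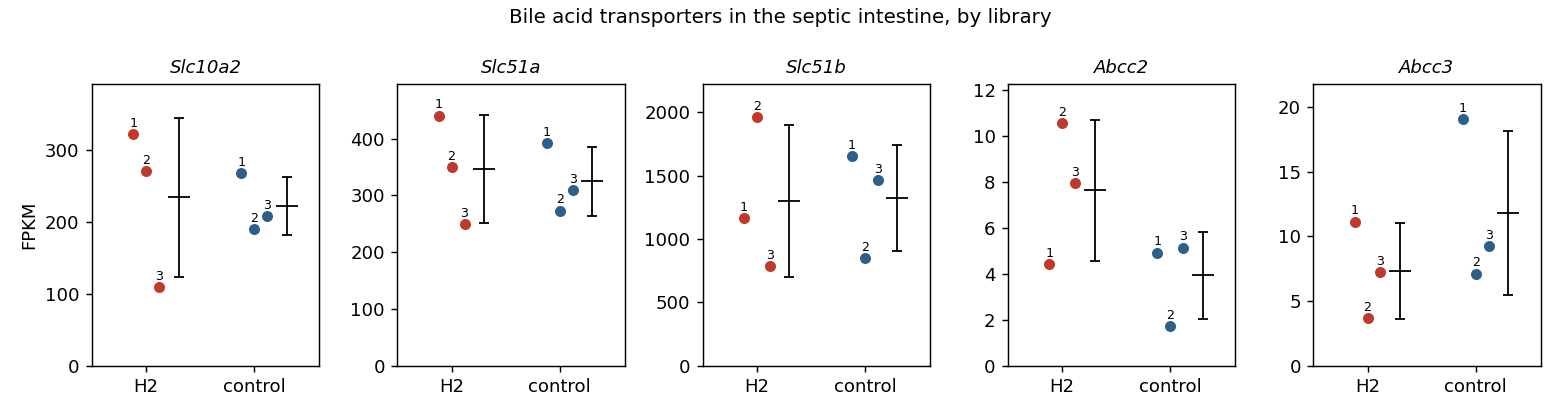
FPKM (vertical axis, linear, from 0) of the 5 transporters tested in the intestine, by library, H2 in red on the left and control in blue on the right; numbers are the replicate numbers and the black bars are the group mean ± SD (n = 3 each). The groups overlap for all 5, and for Slc10a2 the H2 libraries hold both the highest value, 323, and the lowest, 110.

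Of the 5 tested in the intestine 0 were called, where 0.0084% of 11910 genes were, 0 had p under 0.05 before adjustment, against 12.5%, and 0 had groups without overlap, against 19.3%. Markers of the intestinal segment differed within the H2 group. Gata4, a factor of the proximal small intestine that is known to be absent from the ileum, was at 0.181, 11.2 and 11.3 FPKM in the H2 intestines, against 0.184, 0.171 and 0.136 FPKM in the control intestines. Lactase (Lct), another proximal gene, was at 0.0121, 3.25 and 1.498 FPKM in the H2 intestines and at most 0.0229 FPKM in the control intestines, and the ileal vitamin B12 receptor Cubn was at 6.53, 4.22 and 1.16 FPKM in the H2 intestines, against 10.7, 7.32 and 11.8 FPKM in the control intestines. Not all members of these lists ran the same way. Proximal Rbp2 was at 571, 2641 and 1068 FPKM in the H2 intestines, against 736, 332 and 515 FPKM in the control intestines. Proximal Slc40a1 was at 56.1, 22.3 and 21.1 FPKM in the H2 intestines, against 22.8, 44.4 and 30.1 FPKM in the control intestines. Ileal Osr2 was at 19.5, 26.4 and 33.0 FPKM in the H2 intestines, against 23.4, 26.4 and 22.4 FPKM in the control intestines. Ileal Clca4b overlapped between the groups. The whole list of 7 proximal markers summed to 3029 to 7239 FPKM in the H2 intestines and 1514 to 2823 FPKM in the control intestines. That of 5 ileal markers summed to 3885 to 6978 FPKM in H2 and 2603 to 4663 FPKM in control.

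With H2 intestine 1 as the only H2 library, an alternative chosen after these markers were seen, Slc10a2 differed by 0.55, Slc51a by 0.45, Slc51b by -0.13, Abcc2 by 0.23 and Abcc3 by 0.03 on the log2 scale, and none was called. In that fit the lone H2 library is assumed to vary like the 3 controls, from which the spread comes. The 8 enterocyte markers summed to 3436 to 8248 FPKM in the H2 intestines and 2511 to 4453 FPKM in the control intestines. The 5 fat cell markers summed to 79.7 to 183 FPKM in the H2 intestines and 228 to 303 FPKM in the control intestines. Of the 4 tested, 3 were lower with p under 0.05 before adjustment (limma), against 12.5% of tested genes in either direction. Among them Adipoq was at 0.0704, 0.0997 and 11.6 FPKM in the H2 intestines, against 20.8, 17.5 and 14.5 FPKM in the control intestines. The part of segment and of cell makeup in the intestinal values was not tested.

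The gene most like Slc10a2 over the 6 intestines was Sqrdl, with a root mean square difference of centred log2 values of 0.11, where the median over tested genes was 0.56, followed by Trim15, Bglap3, Zdhhc13 and Klk1. Among 11905 genes Slc51a was at rank 63 and Slc51b at 686, while Abcc3 was at 10148 and Abcc2 at 11249. The ileal bile acid binding protein Fabp6, which carries bile acids from Slc10a2 to the basolateral membrane, averaged 2417 ± 671 FPKM in the H2 intestines and 1438 ± 287 FPKM in the control intestines (SD, n = 3 each). Its groups did not overlap, with a log2 difference of 0.73 ± 0.28 (SE, adjusted p = 0.380, limma), and it was 1 of 13 tested in the list of other transporters, in which 0 were called and the median was 0.10.

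In that list Slco3a1 (-0.77 ± 0.24, adjusted p = 0.353) and the basolateral pump Abcc4 (-0.48 ± 0.20, adjusted p = 0.396) had all H2 intestines below all control intestines, and Abcg5 and Abcc1 overlapped. Of 10 tested synthesis genes Scp2 (0.81 ± 0.26, adjusted p = 0.353) and Amacr (0.41 ± 0.17, adjusted p = 0.397) were higher in all H2 intestines, and Acot8, Hsd3b7, Cyp27a1 and Cyp39a1 overlapped. Of 15 tested regulators Nfe2l2 (0.51 ± 0.20, adjusted p = 0.380) was higher and Cebpb (-0.92 ± 0.27, adjusted p = 0.353) lower without overlap, and Fgfr4, Nr1i2, Cebpa and Hnf4a overlapped. All 7 tested detoxification enzymes overlapped between the groups. Over all tested genes, 19.3% had groups without overlap in either direction.

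In the lung, Abcc3 was the 1 transporter above the filter. It was at 18.2, 22.0 and 19.5 FPKM in the H2 lungs, against 14.0, 15.9 and 16.8 FPKM in the control lungs. All H2 lungs were above all control lungs, as for 14.1% of the 13424 tested genes. The log2 difference was 0.33 ± 0.12 (SE, n = 3 each, adjusted p = 0.188, limma), and 0.00745% of tested genes were called. Without control lung 3 the number of genes called was 3295 in place of 1, and Abcc3 was at 0.39 with an adjusted p of 0.0629. The other 9 transporters were at most 0.746 FPKM in any lung library, the level of Slc51b in control lung 2, and Slc10a2 and Slco1a1 were listed at 0 in all 6.

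Of the 11 other transporters tested in the lung, the xenobiotic pumps Abcg2 (0.84 ± 0.18, adjusted p = 0.172) and Abcb1a (0.85 ± 0.22, adjusted p = 0.172), Slco2a1 (0.34 ± 0.11, adjusted p = 0.178) and Ephx1 (0.64 ± 0.22, adjusted p = 0.184) had all H2 lungs above all control lungs, and Abcb1b (-0.79 ± 0.25, adjusted p = 0.173) had them below. Slco1a5 overlapped. None of the 11 was called, and their median was 0.18. Over all 13424 tested genes, 14.1% were higher in the H2 lungs without overlap. Of 10 tested synthesis genes the sterol 27-hydroxylase Cyp27a1 (0.79 ± 0.23, adjusted p = 0.172) was higher in all H2 lungs, and Hsd3b7, Cyp39a1, Cyp7b1, Scp2 and Hsd17b4 overlapped. Of 7 tested regulators Cebpb (-0.93 ± 0.21, adjusted p = 0.172) was lower and Nr3c1 (0.20 ± 0.10, adjusted p = 0.272) higher without overlap, and Nfe2l2, Vdr, Ppara and Cebpa overlapped, as did all 6 tested detoxification enzymes. The 6 endothelial markers had a median log2 difference of 0.77 in the lung, 4 of them higher with p under 0.05 before adjustment, against 23.1% of tested genes in either direction, and their part in these values was not tested.

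The transporters divided the organs sharply. In the control groups Slc51b (1324 ± 422), Slc51a (325 ± 60.9) and Slc10a2 (222 ± 40.7) had the highest levels of the 10 in the intestine, and Slco1b2 (52.3 ± 48.5), Slc10a1 (28.9 ± 17.0) and Abcc2 (17.1 ± 9.64) in the liver (mean FPKM ± SD, n = 3 each). A mean of 1 FPKM over 18 libraries was the filter for these comparisons, and 9 of the 10 passed it. Slc10a1, Slco1b2, Slco1a1 and Abcb11 passed through the liver alone and Slc51a and Slc51b through the intestine alone, so their differences between organs are a description of where they were found and support nothing. Control liver against control intestine called 72.6% of 13362 genes, 12.6% higher and 60% lower. Slc10a1 differed by 4.75 ± 0.25 and Slco1b2 by 5.32 ± 0.38, liver minus intestine on the log2 scale, and Slc10a2 by -4.83 ± 0.37, Slc51a by -8.33 ± 0.16 and Slc51b by -8.75 ± 0.33 (SE, adjusted p of 7.71e-09 or lower, limma).

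Abcb11 (2.51 ± 0.39), Slco1a1 (2.97 ± 0.28) and Abcc2 (1.83 ± 0.34) were also higher in the control liver than in the control intestine. Control liver against control lung called 85.1% of genes, 9.15% higher and 76% lower. Slc51b differed by 1.17 ± 0.33 there (adjusted p = 0.00400, limma), a call lost with a pseudocount of 5 (0.39, adjusted p = 0.179). Control intestine against control lung called 68.9% of genes, 17.6% higher and 51.3% lower. Slc10a2, Abcc2, Slc51a and Slc51b, higher in that comparison, were at most 0.746 FPKM in any lung library. Over all genes the median shift was -0.64 for liver minus intestine, -1.17 for liver minus lung and -0.45 for intestine minus lung.

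Another scaling changes these splits. With quantile normalization 4315 genes were higher and 3811 lower in the liver than in the intestine, 4632 and 4652 in the liver than in the lung, and 4190 and 4477 in the intestine than in the lung. With median-of-ratios scaling the numbers were 3981 and 4271, 4367 and 4960, and 4156 and 4275. Abcc3 was not called between any pair of control organs as deposited. It averaged 11.8 ± 1.902 FPKM in the control liver, 11.8 ± 6.37 FPKM in the control intestine and 15.6 ± 1.47 FPKM in the control lung (SD, n = 3 each). Its liver minus lung difference was -0.38 as deposited, 0.82 with quantile normalization (adjusted p = 0.0241, limma) and 0.94 with median-of-ratios scaling (adjusted p = 0.0181), and its liver minus intestine difference was 0.10 as deposited and 0.86 and 0.90 with these scalings (adjusted p = 0.0214 and 0.0260). Without control intestine 1, intestine minus lung was -0.86 (adjusted p = 0.0196).

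**Figure D4:**
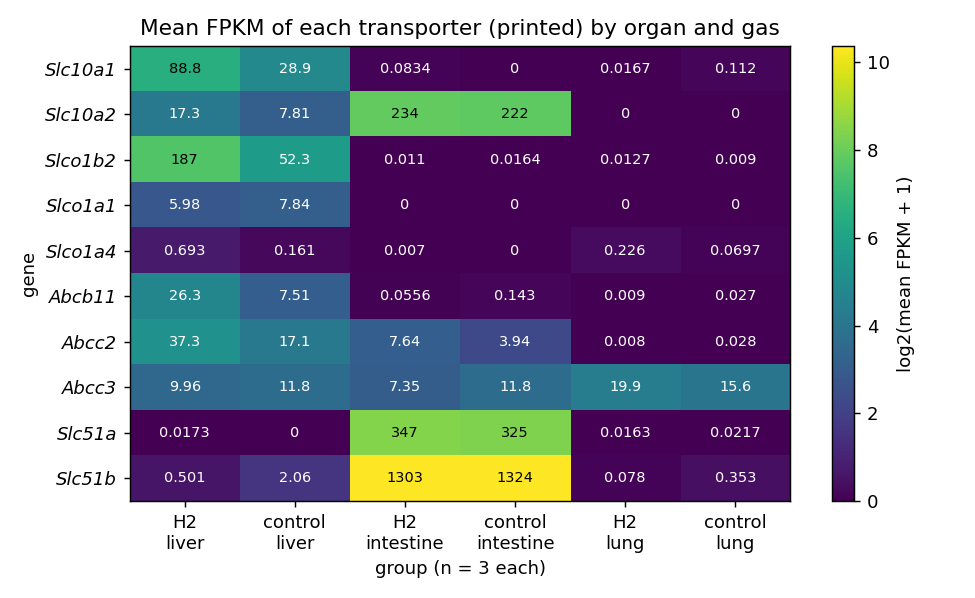
Mean FPKM (printed in each cell, n = 3) of the 10 transporters in the 6 groups, with H2 left of control within each organ and colour on a log2(mean FPKM + 1) scale. Slc10a1, Slco1b2, Slco1a1 and Abcb11 are high in the liver alone, Slc51a and Slc51b in the intestine, Abcc2 and Slc10a2 in both, and Abcc3 is between 7.35 and 19.9 in all 6 groups.

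Whether the H2 difference itself differed between organs was tested in 1 fit of 18 libraries. Between liver and lung 0.239% of 13362 genes were called. Slc10a1 was among them, with an H2 minus control difference of 1.73 in the liver and -0.12 in the lung, 1.86 ± 0.36 apart (SE, adjusted p = 0.0436, limma). It passed the filter through the liver alone and was at most 0.268 FPKM in any lung library, so this value restates the liver difference, itself not called in the liver fit, and shows no difference in response between organs. The gap was 1.53 to 2.29 with each library left out and was called in 2 of these 12 fits, without control liver 2 (2.29, adjusted p = 9.56e-06) and without control lung 3 (1.93, adjusted p = 0.0116). Leaving out any of the other 10 libraries ended the call, with values of 1.53 to 1.91 and adjusted p of 0.0753 to 0.142.

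Between liver and intestine 0 of the 9 were called, where 0.217% of genes were. Slc10a2, present in both organs, had 1.23 in the liver and -0.05 in the intestine, 1.28 ± 0.52 apart (SE, adjusted p = 0.252, limma). Without control liver 2 this was 1.77 (adjusted p = 0.0210). Abcc2 had 1.21 in the liver and 0.83 in the intestine, 0.38 ± 0.49 apart (adjusted p = 0.760), and Slc51b had -1.01 in the liver and -0.07 in the intestine, -0.94 ± 0.47 apart (adjusted p = 0.350). Abcc3 was the 1 transporter above the filter in every organ, with -0.24 in livers, -0.61 in intestines and 0.33 in lungs. The intestine minus lung gap of Abcc3 was -0.95 ± 0.45 (adjusted p = 0.264), where 1.24% of genes were called. A p that misses the threshold does not show that these organs responded alike.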

How the data were processed

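Reads were processed on mm10 with Bowtie2 2.2.3, Cufflinks 2.2.1, SAMtools 0.1.19 and TopHat2 2.0.13, per the submitters' processing notes; the gene models and settings are not given in the sources used here. Per the labels, miRNeasy Micro columns and a TruSeq stranded mRNA preparation were used. The authors deposited FPKM, 1 table per library, with 24346 symbols. The table of control lung 2 holds 1 more column, equal to control lung 3 (0 values differ), which was not used. Titles gave the groups. The description fields of H2 replicates 2 and 3 give the gas another number, read here as a numbering slip.

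Values were taken as log2(FPKM + 1) and fitted with limma 3.58.1 in R 4.3.3 (two-sided, moderated with a trend). Organs were fitted separately over genes with a mean of at least 1 FPKM, and differences between organs in a joint fit of 18 libraries. A gene was called at a Benjamini-Hochberg adjusted p under 0.05 over all tested genes. An exact permutation test of 3 against 3 cannot give a p under 0.1. The 10 members and all gene lists were chosen with earlier results of these data known. Named beside the members are up to 6 genes with the smallest p of each pathway list, and the 5 genes most like Slc10a1 and Slc51b in the liver and Slc10a2 in the intestine; some that this rule takes are not reported here. Of 143 listed genes 142 were found.

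FPKM tables hold no counts, so no counting interval is given. Depth was implied from 8292 genes with 1 transcript in GENCODE vM21, which also gave positions, and fragments of Slc51b follow from it and the transcript length. Alternatives were no filter, a mean of at least 5 FPKM, pseudocounts of 0.1 and 5, quantile and median-of-ratios scaling, a robust fit, a replicate block, all 18 libraries in 1 fit, and each library left out. H2 intestine 1 as the only H2 library was added after seeing the data.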

Additional observations from a re-analysis of the deposited data

Results flagged for a closer look

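A test of the H2 difference between organs took in Slc10a1, although the gene passed the filter through the liver alone. Its H2 minus control difference was 1.73 in the liver and -0.12 in the lung, 1.86 apart on the log2(FPKM + 1) scale (adjusted p = 0.0436, limma, over 13362 genes). The lung libraries were at 0.05, 0 and 0 FPKM with H2 and 0.067, 0.268 and 0 FPKM in the controls, so the value restates the liver difference, which was not called in the liver fit (adjusted p = 0.154), against an organ with almost no Slc10a1 RNA, and shows no difference in response. The call was lost with a pseudocount of 0.1 (adjusted p = 0.158), a mean of at least 5 FPKM (0.0815) and quantile normalization (0.0529), and kept in the other 5 alternatives, at an adjusted p of 0.0224 to 0.0447. The cause was not tested.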

How the results depend on the processing

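No member was called between H2 and control in any organ under any alternative other than the fit of all 18 libraries and the liver fit without control liver 2. The counts of called genes rest on few calls and moved with some of the settings. In the liver the count, 2 as reported, was 0 with a pseudocount of 0.1, without the filter, with a mean of at least 5 FPKM and with the replicate block, and 279 with all 18 libraries. In the intestine, 1 as reported, it was 2 with the robust fit, 3 with the replicate block, 225 with all 18 libraries and 15 with H2 intestine 1 as the only H2 library. In the lung, 1 as reported, it was 2 without the filter and 535 with all 18 libraries.

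For the H2 effect between liver and intestine, 29 genes as reported, the count was 15 with a pseudocount of 0.1, 61 with 5, 61 without the filter, 7 with a mean of at least 5 FPKM and 48 with the robust fit. Between liver and lung, 32 as reported, the same settings gave 15, 139, 120, 2 and 49. Between intestine and lung, 166 as reported, a pseudocount of 0.1 gave 29, 5 gave 351, no filter 402, a mean of at least 5 FPKM 38, quantile normalization 44 and median-of-ratios scaling 46. With each library left out the counts were 0 to 2834 in livers, 2 to 28 in intestines, 1 to 3295 in lungs, 10 to 779 between liver and intestine, 2 to 588 between liver and lung and 18 to 1035 between intestine and lung.

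Some directions turned. With H2 intestine 1 as the only H2 library, Slc10a2 was at 0.55 and Abcc3 at 0.033 in the intestine; with quantile normalization Slc51a was at -0.21 there. Abcc3 in control liver minus control lung was 0.82 with quantile normalization and 0.94 with median-of-ratios scaling, which also gave 0.040 for control intestine minus control lung. With each library left out, Slco1a1 ran from -0.57 to 0.27 in the liver, and in the intestine Slc10a2 ran from -0.35 to 0.43, Slc51a from -0.12 to 0.29 and Slc51b from -0.41 to 0.25. Abcc3 ran from -0.0074 to 0.69 for the H2 effect between liver and intestine and from -0.17 to 0.48 for control liver minus control intestine, and Slc51a from -0.045 to 0 for control liver minus control lung. The liver uptake minus export difference was 1.07 with a pseudocount of 0.1. Slc51b in control liver minus control lung was 0.39 with a pseudocount of 5 (adjusted p = 0.179). The causes were not tested.

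Replicate numbers were not taken as pairs: correlations of same-numbered deviations were 0.33, -0.08 and 0.03 for livers, 0.16, -0.11 and -0.03 for intestines and -0.01, 0.12 and 0.01 for lungs. The replicate block called 0 genes in livers, 3 in intestines and 1 in lungs, and it changed the call of no member.

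Low FPKM limit what can be seen: Slc51b in the liver rests on a few fragments and falls under the filter without control liver 3 and with a mean of at least 5 FPKM.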
